A study of Mus musculus with 12 samples.

Results

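The genes described here are 38 mouse genes of glycolysis and of the response to low oxygen: 24 that encode glucose and lactate transporters, the glycolytic enzymes, 2 of their regulators and the kinase Pdk1, and 14 that encode the hypoxia-inducible factor HIF-1 alpha, its oxygen sensors and well-known HIF targets. They were chosen by symbol from textbook membership of these pathways, with earlier results of these data known. All 38 were found among the 26305 gene identifiers of the count table, and 36 of them passed the filter on low counts and were tested among 11997 genes. The 2 others had almost no reads in this line: Eno2, the neuronal enolase, had 4 counts over the 12 libraries and Ldhb, the heart-type lactate dehydrogenase subunit, had 0, which allows a level of up to 0.0114 CPM (CPM being the count scaled by library size, here 3 counts over the 12 libraries, counting error only).

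RNA was profiled in EMRK1184luc, a B cell lymphoma line from 1 female Eµ-Myc mouse, in which the immunoglobulin heavy chain enhancer drives a Myc transgene in B lineage cells, and which also carries a lentiviral luciferase reporter. The cells received DMSO, the vehicle, or 5 µM WM-1119, an inhibitor of the MYST-family histone acetyltransferases KAT6A and KAT6B, for 3 or for 6 days. Each of the 4 groups has 3 biological replicates, and all 4 share the same transgene, reporter and line, so the comparisons describe 1 tumour. The labels name no culture or day for a replicate and no oxygen level for the incubator, and the p-values therefore reflect no more than how far these preparations differed.

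Glycolysis splits glucose into pyruvate in the cytosol, with a preparatory phase that spends ATP and a pay-off phase that returns it, and lymphoma cells often run it at a high rate and export the lactate. HIF-1 is a transcription factor whose alpha subunit is hydroxylated by oxygen-dependent enzymes and then destroyed, so that it accumulates when oxygen is scarce. It binds a short core sequence at many glycolytic genes and at genes of mitophagy, collagen hydroxylation and acid export, and MYC binds related E-box sequences at a part of the same glycolytic genes.

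Library totals ran from 14691369 to 41607926 counts. The 38 genes together took 0.913% to 1.05% of the counts of a DMSO library and 0.734% to 0.771% of those of a WM-1119 library. Of 8 B cell markers 7 were detected well enough to be tested, and their summed level was 4575 to 4815 CPM in the DMSO libraries and 4897 to 5148 CPM in the WM-1119 libraries. Of 5 T cell markers 4 were at 0 throughout, and the myeloid, endothelial and erythroid lists summed to 105 to 128, 86.3 to 104 and 0.488 to 1.07 CPM. Only 2 of 5 myeloid, 1 of 4 endothelial and 1 of 4 erythroid markers were detected well enough to be tested. Fibroblast markers summed to at most 11.9 CPM in DMSO and 26.6 CPM under WM-1119, and 5 libraries had over 1 CPM of the collagen gene Col1a1: replicates 1 and 2 of both groups at 6 days and replicate 2 of WM-1119 at 3 days. Replicate 3 of DMSO stood apart from the other DMSO replicates in the genes described here, and its values stand beside the results they touch. In bulk RNA, fewer cells that express a gene and less RNA per cell cannot be told apart.

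Most of these genes were lower with WM-1119 at both times. At 3 days 25 of the 36 tested genes fell and 2 rose, while 12.6% of all genes tested were lower and 11.8% were higher (edgeR's quasi-likelihood test with Benjamini-Hochberg adjustment over all genes, threshold 0.05, the test behind every adjusted p that follows). At 6 days 26 fell and 3 rose, against 15.1% and 15.7% of all genes tested. The median log2 fold change of the 36 genes was -0.40 at 3 days and -0.46 at 6 days, and that of all genes tested was 0.0016 and -0.0037. Of the glycolytic group 15 of 22 tested genes fell and 2 rose at each time. Of the hypoxia group 10 of 14 fell at 3 days, and 11 fell and 1 rose at 6 days. The same direction was called at both times for 24 genes that fell and 2 that rose. Of all genes tested, at most 12.6% can have fallen and at most 11.8% risen at both times, these being the shares called at 3 days. Of the 26 genes described here, 18 passed at both times in each of the 12 fits that left out 1 library.

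The libraries of the 2 treatments rarely overlapped in these genes. At 3 days all 3 WM-1119 libraries lay below all 3 DMSO libraries in 27 genes and above them in 3, where 20.4% and 19.5% of all genes tested did so. At 6 days they lay below in 28 genes and above in 4, against 19.9% and 21.4%. The falls were of unequal size. They exceeded 2-fold in 7 genes at 3 days and 6 genes at 6 days, and of these only Slc16a3, which exports lactate, belongs to the glycolytic group.

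**Figure D1:**
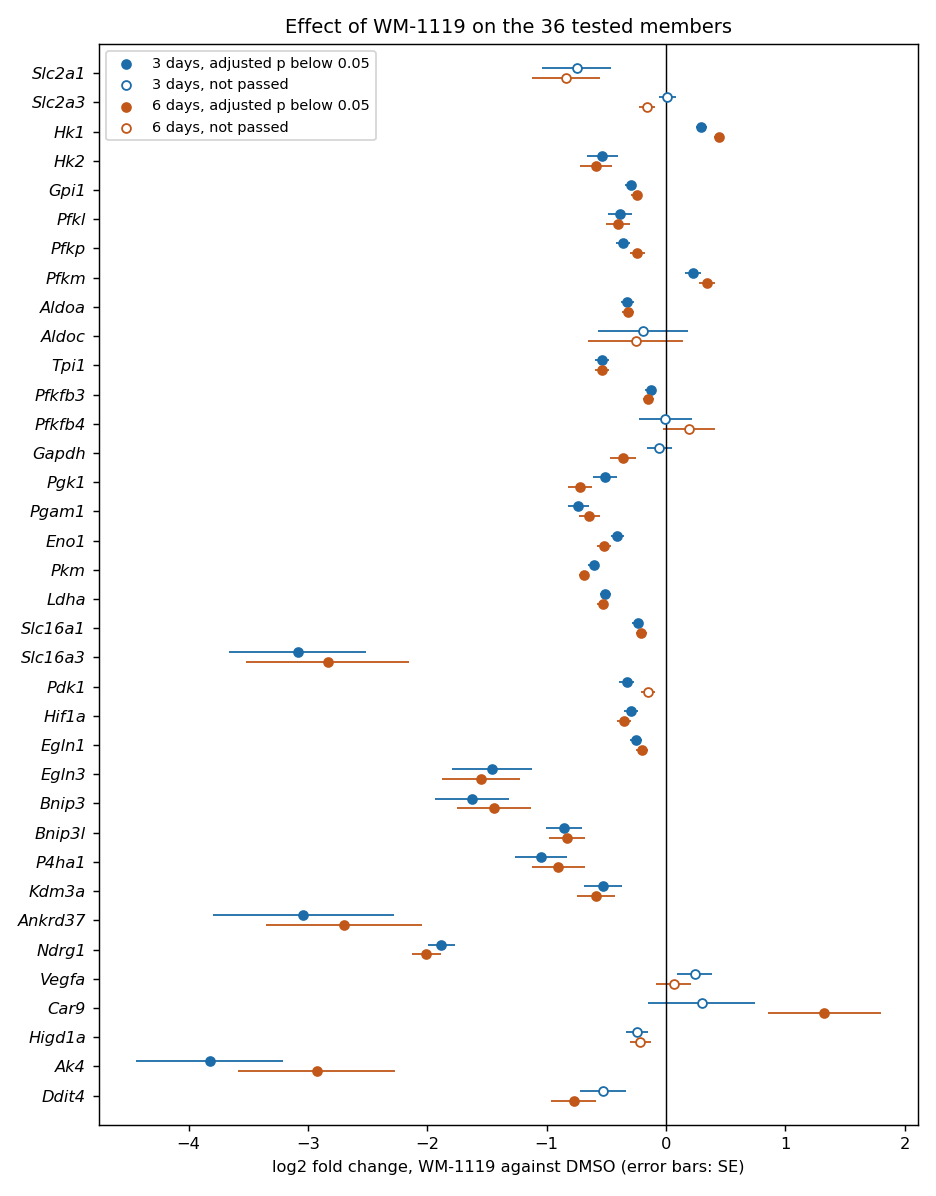
Log2 fold change of the 36 tested genes with WM-1119 against DMSO at 3 days (blue) and 6 days (orange), with bars of 1 SE. Filled points passed the adjusted p threshold of 0.05. Most points lie left of 0, the lowest being Ak4 at -3.82 at 3 days, and Hk1, Pfkm, Vegfa and Car9 lie right of 0 at both times.

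Glucose enters these cells through transporters of the SLC2 family, and neither of the 2 listed transporter genes passed the test. Slc2a1, which encodes the widespread transporter GLUT1, had 60.1, 53.2 and 25.7 CPM in the DMSO libraries of 3 days and 29.0, 26.5 and 27.9 CPM under WM-1119. The values of a group are listed in the order of its replicates 1, 2 and 3. At 6 days the values were 59.4, 60.0 and 43.8 CPM in DMSO and 27.4, 29.2 and 35.2 CPM under WM-1119. The groups did not overlap at 6 days, but at 3 days the third DMSO replicate lay below all 3 treated libraries. The log2 fold changes were -0.75 ± 0.29 (SE, adjusted p = 0.0992) and -0.84 ± 0.29 (adjusted p = 0.0572). The test was passed at both times without replicate 3 of DMSO at 3 days (adjusted p = 0.000565 and 0.000766), and at 6 days without replicate 1 of DMSO at 3 days (0.0471) or replicate 3 of DMSO at 6 days (0.0469). Without replicate 3 of both DMSO groups, an alternative added after the values were seen, the log2 fold changes were -1.03 (adjusted p = 3.99e-08) and -0.97 (adjusted p = 4.59e-08). DESeq2 also called Slc2a1 at both times (0.0485 and 0.0166). Slc2a3, the high-affinity transporter GLUT3, was level at 3 days (19.9 ± 0.408 CPM in DMSO and 20.1 ± 0.318 CPM under WM-1119, SD, n = 3) and stood at 21.7 ± 0.428 and 19.4 ± 0.899 CPM at 6 days (adjusted p = 0.087).

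Of the 9 preparatory enzyme genes tested 6 fell at each time, and the isozyme genes Hk1 and Pfkm rose. Hexokinase traps glucose as glucose 6-phosphate, and its 2 genes moved in opposite directions. Hk2, the inducible hexokinase of many tumours, had 96.4, 92.5 and 67.4 CPM in DMSO and 53.3, 62.8 and 61.1 CPM under WM-1119 at 3 days. Its 6-day values were 96.6, 93.8 and 78.6 CPM and 59.6, 59.4 and 60.4 CPM. Hk1, the constitutive hexokinase, had 219.5, 228 and 224 CPM in DMSO and 263, 280.3 and 281 CPM under WM-1119 at 3 days, and 191, 198 and 198 CPM and 260.3, 263 and 275 CPM at 6 days. Neither gene's groups overlapped at either time, Hk2 being lower and Hk1 higher in every treated library. Hk2 changed by -0.53 ± 0.13 on the log2 scale (SE, adjusted p = 0.0148) and -0.59 ± 0.13 (adjusted p = 0.00731), and its call at 3 days was lost without replicate 2 of DMSO or replicate 1 of WM-1119 at that time (0.0555 and 0.0553). Hk1 changed by 0.30 ± 0.04 (adjusted p = 2.07e-05) and 0.44 ± 0.04 (adjusted p = 4.68e-08). Per length of gene, the ratio of Hk2 to Hk1 was 0.312 ± 0.0589 with DMSO and 0.176 ± 0.00902 with WM-1119 at 3 days, and 0.375 ± 0.0455 and 0.184 ± 0.00381 at 6 days (SD, n = 3). An exact two-sided permutation test that takes the libraries as unpaired gave p = 0.1 at each time, the smallest value that 3 libraries against 3 allow, and for this and each ratio or share that follows an exact exchange within the 3 same-numbered pairs of 6 days gave p = 0.25, the smallest that 3 pairs allow.

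Gpi1, which turns glucose 6-phosphate into fructose 6-phosphate, had 609.9, 629.9 and 577 CPM in DMSO and 485, 493 and 501 CPM under WM-1119 at 3 days, and 597, 606 and 563 CPM and 464, 515 and 510.3 CPM at 6 days. It fell by 0.30 and 0.25 on the log2 scale (adjusted p = 6.61e-05 and 0.00037), with no overlap at either time.

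Phosphofructokinase, the committed step, is built from subunits of 3 types. Pfkl, the liver-type subunit, had 257, 246 and 187 CPM in DMSO and 175, 174 and 179 CPM under WM-1119 at 3 days, and 246, 248 and 215 CPM and 177, 178 and 181 CPM at 6 days. Pfkp, the platelet-type subunit, had 381, 392 and 318 CPM and 281, 279.9 and 287 CPM at 3 days, and 378, 389 and 358 CPM and 312, 328 and 312 CPM at 6 days. Both fell without overlap, Pfkl by 0.39 and 0.40 (adjusted p = 0.0156 and 0.0101) and Pfkp by 0.36 and 0.24 on the log2 scale (adjusted p = 0.000134 and 0.00423). The third DMSO replicate of 3 days was the closest to the treated libraries in both. Pfkm, the muscle-type subunit, had 34.2, 32.4 and 29.0 CPM and 36.7, 37.8 and 37.2 CPM at 3 days, and 31.7, 31.6 and 30.9 CPM and 39.4, 42.3 and 37.5 CPM at 6 days. It rose, every treated library lying above every DMSO library, the log2 fold changes being 0.22 and 0.34 (adjusted p = 0.0169 and 0.000377). Per length, Pfkm made up 6.41% ± 0.368 of the summed level of the 3 genes with DMSO and 9.35% ± 0.193 with WM-1119 at 3 days. At 6 days it made up 6.13% ± 0.250 and 9.25% ± 0.397 (SD, n = 3, exact permutation p = 0.1 at each time). Pfkl made up 37.7% ± 1.58 with DMSO and 36.3% ± 0.133 with WM-1119 at 3 days (exact permutation p = 0.4). Its share was 37.8% ± 1.01 and 34.2% ± 0.842 at 6 days (exact permutation p = 0.1). The 3-day call of Pfkl was lost without replicate 2 of DMSO (0.0591), replicate 1 (0.0573) or replicate 2 of WM-1119 (0.0599) of that time, and that of Pfkm without replicate 3 of DMSO (0.0942) or replicate 2 of WM-1119 (0.0634).

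Aldolase and triosephosphate isomerase close the preparatory phase. Aldoa, the main aldolase, had 855, 836 and 765 CPM in DMSO and 641, 648 and 673 CPM under WM-1119 at 3 days, and 842, 882 and 764 CPM and 641, 685 and 665 CPM at 6 days. Tpi1, which interconverts the triose phosphates, had 636, 615 and 528 CPM and 429, 391 and 407 CPM at 3 days, and 609, 634 and 596 CPM and 414, 445 and 408 CPM at 6 days. Neither overlapped, and Aldoa fell by 0.32 in log2 at each time (adjusted p = 6.76e-05 and 5.38e-05) and Tpi1 1.45-fold at both times (adjusted p = 1.19e-06 and 7.27e-07). Aldoc, the brain-type aldolase, stayed below 1 CPM in every library and did not pass the test (adjusted p = 0.763 and 0.671).

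The PFKFB enzymes set the level of fructose 2,6-bisphosphate, the activator of phosphofructokinase. Pfkfb3 had 133, 138 and 143 CPM in DMSO and 126, 125 and 127 CPM under WM-1119 at 3 days, and 137, 132 and 139 CPM and 128, 122 and 119 CPM at 6 days. Its falls, of -0.13 and -0.15 in log2, were the smallest among the genes that fell at both times (adjusted p = 0.0413 and 0.0149), with no overlap. The 3-day call was lost in 6 of the 12 fits that left out 1 library, with adjusted p-values of 0.0513 to 0.152, and with DESeq2 (0.0565), upper-quartile scaling (0.0805) and no filter on low counts (0.0948). Those 6 fits left out replicate 2 or 3 of DMSO at 3 days, each WM-1119 library of 3 days, or replicate 3 of WM-1119 at 6 days, and the last of these also removed the 6-day call (0.0867). Pfkfb4, the testis-type form, read 1.68 to 3.18 CPM over all libraries and did not pass at either time (adjusted p = 0.988 and 0.555).

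The pay-off phase, which makes ATP and pyruvate, fell in most of its members: 4 of its 5 tested genes at 3 days and 5 of 5 at 6 days. Pgk1, which makes the first ATP, had 111, 87.2 and 97.5 CPM in DMSO and 70.5, 64.4 and 72.2 CPM under WM-1119 at 3 days, and 114, 114 and 90.6 CPM and 63.3, 67.5 and 62.8 CPM at 6 days. Pgam1, the phosphoglycerate mutase, had 166, 151 and 121 CPM and 92.1, 84.8 and 86.8 CPM at 3 days, and 153, 148 and 148 CPM and 95.4, 99.0 and 92.8 CPM at 6 days. The 2 genes showed no overlap at either time. Pgk1 fell by 0.52 and 0.72 (adjusted p = 0.0023 and 0.000145) and Pgam1 by 0.74 and 0.64 on the log2 scale (adjusted p = 3.42e-05 and 8.02e-05).

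Eno1, the general enolase, had 889.7, 920.2 and 878 CPM in DMSO and 632, 676 and 718 CPM under WM-1119 at 3 days, and 882, 921 and 781 CPM and 576, 592 and 636 CPM at 6 days. Pkm, the pyruvate kinase gene of most tissues and tumours, had 1996, 1964 and 1839 CPM and 1259, 1235 and 1312 CPM at 3 days, and 1963, 1984 and 1851 CPM and 1161, 1229 and 1210.2 CPM at 6 days. The DMSO replicates of Pkm lay close together, the third included, and the treated libraries were all far below them. Eno1 fell by 0.41 and 0.52 (adjusted p = 2.45e-05 and 7.94e-07) and Pkm by 0.61 and 0.69 on the log2 scale (adjusted p = 9.7e-10 and 6.53e-11). The counts are per gene, so the M1 and M2 forms of pyruvate kinase were not resolved.

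Gapdh, the glyceraldehyde phosphate dehydrogenase, was called at 6 days but not at 3 days. Its values were 51.4, 47.4 and 46.9 CPM in DMSO and 44.1, 46.0 and 50.2 CPM under WM-1119 at 3 days, and 52.4, 54.5 and 39.5 CPM and 35.8, 42.2 and 36.1 CPM at 6 days. Both pairs of groups overlapped, at 6 days through the third DMSO replicate, and the log2 fold changes were -0.06 ± 0.11 (SE, adjusted p = 0.756) and -0.36 ± 0.11 (adjusted p = 0.0231). The 6-day call was lost without replicate 1 (0.0887) or 2 (0.0740) of DMSO or replicate 1 (0.0852) or 3 (0.0855) of WM-1119 at 6 days. The reads of this gene are uncertain. A processed copy listed on the Y chromosome, Gapdh-ps15 (chrY:38619739-38620971, mm10), held 56355 counts over the 12 libraries against 12229 for Gapdh, while the Y-linked genes Ddx3y and Eif2s3y of this female line held 5 and 4. The copy had 224 ± 9.24 CPM in DMSO and 199.7 ± 9.25 CPM under WM-1119 at 3 days (SD, n = 3), a log2 fold change of -0.17 (adjusted p = 0.0226), and -0.20 at 6 days (0.00527). RefSeq also names processed copies of Aldoa, Pgk1, Pgam1 and Ldha, and the handling of reads that match several places was not stated in the sources used here.

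Pyruvate becomes lactate or enters the mitochondrion. Ldha, the muscle-type lactate dehydrogenase subunit, had 1964, 1939 and 1789 CPM in DMSO and 1389, 1292 and 1318 CPM under WM-1119 at 3 days, and 1969, 2024 and 2035 CPM and 1345, 1438 and 1383 CPM at 6 days. There was no overlap, and Ldha fell by 0.51 and 0.53 on the log2 scale (adjusted p = 1.72e-08 and 4.46e-09). Pdk1, a kinase that switches off pyruvate dehydrogenase, had 325, 308 and 257 CPM and 240.3, 236 and 231 CPM at 3 days, and 298, 289.8 and 289 CPM and 266, 261 and 264 CPM at 6 days. It fell by 0.33 at 3 days (adjusted p = 0.000402), and its 6-day value of -0.15 ± 0.06 (SE) did not pass (adjusted p = 0.0674). With replicate as a block in the libraries of 6 days alone, an alternative added after the values were seen, Pdk1 passed at 6 days (adjusted p = 0.00368). It also passed with the block over all 12 libraries (0.0353) and without replicate 1 (0.0373) or replicate 3 (0.00728) of DMSO at 3 days.

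Lactate leaves the cell through monocarboxylate transporters, and the 2 listed ones moved by very different amounts. Slc16a1, the widespread transporter MCT1, had 546, 524 and 546 CPM in DMSO and 480.0, 443 and 446 CPM under WM-1119 at 3 days, and 588, 544 and 611 CPM and 499, 509.8 and 499 CPM at 6 days. Slc16a3 (chr11:120948484-120959000, mm10), the hypoxia-inducible exporter MCT4, had 32.5, 31.5 and 7.49 CPM and 2.70, 3.00 and 2.73 CPM at 3 days, and 16.4, 13.8 and 9.02 CPM and 1.68, 2.37 and 1.43 CPM at 6 days. Neither gene's groups overlapped, although the third DMSO replicate of 3 days held far less Slc16a3 than the other 2. Slc16a1 fell 1.18-fold and 1.16-fold (adjusted p = 0.000554 and 0.00138). Slc16a3 changed by -3.09 ± 0.57 on the log2 scale (SE, adjusted p = 0.00471) and -2.84 ± 0.68 (adjusted p = 0.0135), the second being a 7.14-fold fall. Per length, Slc16a3 stood at 0.0764 ± 0.0458 of the level of Slc16a1 with DMSO and 0.0106 ± 0.000985 with WM-1119 at 3 days, and at 0.0390 ± 0.0119 and 0.00623 ± 0.00159 at 6 days (SD, n = 3, exact permutation p = 0.1 at each time). With limma voom the Slc16a3 calls were lost (adjusted p = 0.0516 and 0.112), and so was the 6-day call without replicate 3 of WM-1119 at 6 days (0.0518).

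Along the pathway the levels per kilobase of gene length spanned a wide range. With DMSO at 3 days they were highest for Ldha, at 983 ± 49.0 CPM per kb (SD, n = 3), followed by Pkm at 744 ± 31.9, Eno1 at 504 ± 12.4, Aldoa at 449 ± 26.1 and Tpi1 at 370.4 ± 35.9 CPM per kb. Eno1 and Aldoa, neighbours in this order, were separated by more than the SD of either. At the low end Slc2a3 had 5.04 ± 0.103 and Aldoc 0.363 ± 0.0809 CPM per kb. Hk1, at 49.6 ± 0.942 CPM per kb, lay within 1 SD of Pgk1, at 54.7 ± 6.51, and Hk2 was at 15.5 ± 2.86 CPM per kb. Gapdh, at 39.4 ± 2.01, cannot be placed in this order, because its processed copy held more counts than the gene. All these levels are of reads as assigned, and processed copies are also named for Aldoa, Pgk1, Pgam1 and Ldha. In the treated cells of 3 days Ldha and Pkm still led, at 691 ± 26.1 and 488 ± 15.0 CPM per kb.

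**Figure D2:**
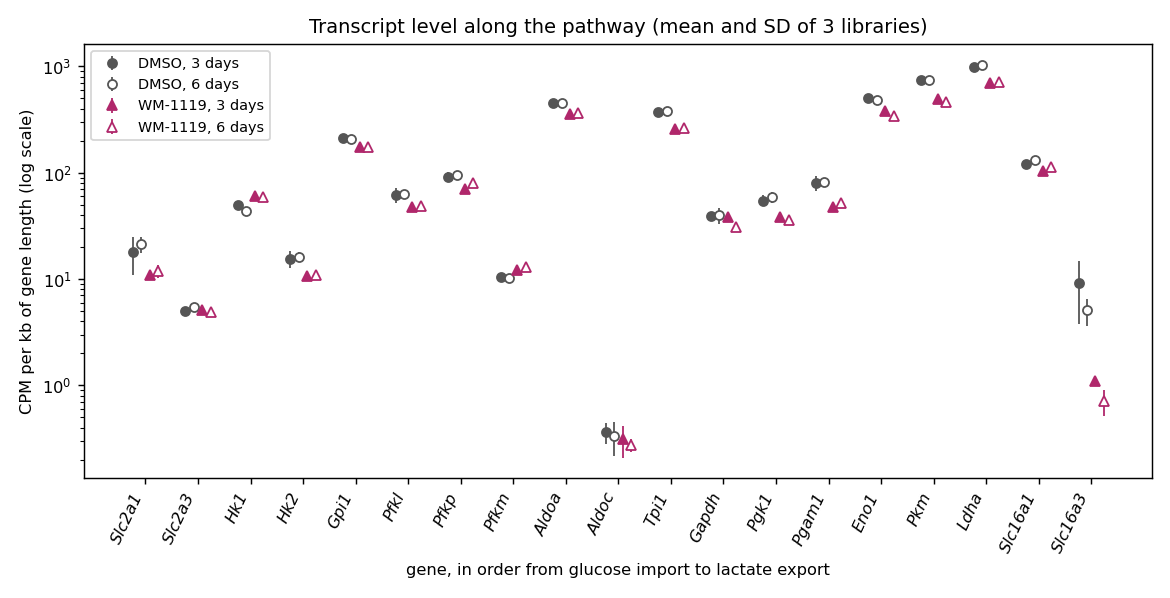
Level per kilobase of gene length (log axis) of 19 glycolytic genes ordered from glucose import to lactate export, as mean and SD of 3 libraries, for DMSO (grey circles) and WM-1119 (magenta triangles) at 3 days (filled) and 6 days (open). Treated points lie below DMSO points for most steps, lie above them for Hk1 and Pfkm, and are furthest below for Slc16a3. The level of Gapdh is uncertain, since its processed copy held more counts than the gene.

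The hypoxia group opens with the factor and its sensors, and all 3 fell at both times. Hif1a, the oxygen-regulated HIF subunit, had 249.6, 253 and 251 CPM in DMSO and 217, 202 and 194 CPM under WM-1119 at 3 days, and 280.3, 252 and 296 CPM and 229, 201 and 217 CPM at 6 days. The DMSO replicates of Hif1a at 3 days were nearly equal, and neither time overlapped. It fell by 0.30 and 0.36 on the log2 scale (adjusted p = 0.00067 and 6.78e-05). Egln1, the prolyl hydroxylase PHD2 that marks HIF-1 alpha for destruction, had 143, 141 and 122 CPM and 119, 112 and 112 CPM at 3 days, and 139, 144 and 139.7 CPM and 120.2, 123 and 124 CPM at 6 days. Egln3, the hydroxylase PHD3, itself a HIF target, had 102, 96.4 and 37.4 CPM and 28.5, 29.7 and 27.7 CPM at 3 days, and 115, 114 and 87.2 CPM and 34.4, 37.0 and 36.6 CPM at 6 days. Neither overlapped. Egln1 fell 1.19-fold and 1.15-fold (adjusted p = 0.00112 and 0.00521), and Egln3 fell 2.75-fold and 2.93-fold (log2 -1.46 ± 0.33 and -1.55 ± 0.33, SE, adjusted p = 0.0133 and 0.0074). Per length, the ratio of Egln3 to Egln1 was 0.746 ± 0.298 with DMSO and 0.331 ± 0.0173 with WM-1119 at 3 days, and 0.985 ± 0.144 and 0.388 ± 0.00980 at 6 days (SD, n = 3, exact permutation p = 0.1).

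Of the 11 other HIF targets 7 fell at 3 days, and 8 fell and 1 rose at 6 days. Ndrg1, a stress-responsive gene linked to differentiation, had 12.8, 12.1 and 12.9 CPM in DMSO and 3.41, 3.56 and 3.20 CPM under WM-1119 at 3 days, and 11.4, 11.7 and 10.8 CPM and 2.52, 2.77 and 3.13 CPM at 6 days. Its DMSO replicates were tight at both times, the third among them, and the groups lay far apart. It fell 3.69-fold and 4.03-fold (log2 -1.88 ± 0.11 and -2.01 ± 0.12, SE, adjusted p = 5.38e-11 and 3.03e-11), the smallest p-values of the 36 genes at both times.

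Ankrd37 (chr8:45996908-46000414, mm10), an ankyrin repeat gene known mainly as a HIF target, had 15.6, 13.0 and 1.93 CPM in DMSO and 1.35, 1.57 and 0.735 CPM under WM-1119 at 3 days, and 21.0, 19.2 and 12.4 CPM and 1.68, 2.88 and 3.67 CPM at 6 days. Ak4, a mitochondrial adenylate kinase, had 4.78, 3.86 and 1.08 CPM and 0.487, 0.140 and 0.105 CPM at 3 days, and 2.54, 2.44 and 1.58 CPM and 0.299, 0.226 and 0.340 CPM at 6 days. Both were low genes whose treated libraries all lay below the DMSO libraries, with the third DMSO replicate nearest to them. Ankrd37 fell 8.22-fold and 6.48-fold (log2 -3.04 ± 0.76 and -2.70 ± 0.65, SE, adjusted p = 0.0198 and 0.014). Ak4 fell 14.2-fold and 7.61-fold (log2 -3.82 ± 0.62 and -2.93 ± 0.66, SE, adjusted p = 0.000704 and 0.00513). Leaving out 1 library moved the 3-day log2 fold change of Ak4 over a range of -4.66 to -3.44, the largest fall being that without replicate 1 of WM-1119 at 3 days. The Ankrd37 call at 3 days was lost in each fit without a library of that time except replicate 3 of DMSO (adjusted p = 0.0543 to 0.0684), and at 6 days without replicate 1 of WM-1119 (0.0557). Limma voom did not call Ankrd37 either (0.155 and 0.0600).

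Bnip3 and Bnip3l encode receptors that mark mitochondria for autophagy. Bnip3 (chr7:138890836-138909506, mm10) had 59.5, 47.5 and 22.4 CPM in DMSO and 14.7, 13.6 and 13.9 CPM under WM-1119 at 3 days, and 47.2, 44.5 and 39.4 CPM and 15.5, 16.3 and 16.7 CPM at 6 days. Bnip3l had 109, 82.9 and 73.3 CPM and 53.5, 46.7 and 46.7 CPM at 3 days, and 101, 80.9 and 83.3 CPM and 54.1, 46.7 and 48.9 CPM at 6 days. Neither overlapped. Bnip3 fell 3.09-fold and 2.71-fold (adjusted p = 0.00525 and 0.0078) and Bnip3l 1.81-fold and 1.78-fold (adjusted p = 0.00272 and 0.00258). Per length, the ratio of Bnip3 to Bnip3l was 0.876 ± 0.272 with DMSO and 0.531 ± 0.0210 with WM-1119 at 3 days (SD, n = 3). At 6 days it was 0.915 ± 0.0853 and 0.600 ± 0.0642 (exact permutation p = 0.1 at each time). A processed copy, Bnip3l-ps, held 6438 counts against 19038 for Bnip3l and fell by 1.06 and 0.94 on the log2 scale (adjusted p = 8.37e-09 and 2.76e-08), so the split of reads between the 2 is uncertain.

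P4ha1, a collagen prolyl hydroxylase subunit, had 95.9, 83.5 and 48.4 CPM in DMSO and 37.5, 36.4 and 36.8 CPM under WM-1119 at 3 days, and 84.0, 80.1 and 67.9 CPM and 39.1, 40.8 and 44.4 CPM at 6 days. Kdm3a, a histone H3 lysine 9 demethylase, had 136, 117 and 84.0 CPM and 81.2, 76.1 and 77.1 CPM at 3 days, and 135, 132 and 110.0 CPM and 79.4, 81.7 and 89.6 CPM at 6 days. Both showed no overlap, but the third DMSO replicate of Kdm3a at 3 days lay just above the treated libraries. P4ha1 fell by 1.05 and 0.90 on the log2 scale (adjusted p = 0.00889 and 0.0144), and its 6-day call was lost without replicate 1 of WM-1119 at 6 days (0.0506). Kdm3a fell by 0.53 and 0.59 (adjusted p = 0.0422 and 0.0224). Its 3-day call was lost in 10 of the 12 fits that left out 1 library, all but those without replicate 3 of DMSO at 3 or 6 days (adjusted p = 0.0547 to 0.124), and its 6-day call without replicate 1 or 2 of either 6-day group (0.0651 to 0.0739).

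Ddit4, the mTOR inhibitor REDD1, had 101, 87.3 and 64.2 CPM in DMSO and 59.4, 54.7 and 61.1 CPM under WM-1119 at 3 days, and 133, 134 and 90.1 CPM and 68.4, 68.0 and 72.6 CPM at 6 days. The groups did not overlap, and the log2 fold change was -0.53 ± 0.19 at 3 days (SE, adjusted p = 0.082) and -0.78 ± 0.19 at 6 days (adjusted p = 0.0143). The 3-day value passed without replicate 3 of DMSO at 3 days (0.0221) or at 6 days (0.0216) and with DESeq2 (0.0229), and the 6-day call was lost without replicate 1 of DMSO at 6 days (0.0514) and with the replicate block within 6 days (0.0927). Higd1a, a mitochondrial inner membrane protein, stood at 22.6 ± 2.33 CPM in DMSO and 19.1 ± 0.439 CPM under WM-1119 at 3 days and at 23.6 ± 2.66 and 20.4 ± 1.36 CPM at 6 days (SD, n = 3, adjusted p = 0.0533 and 0.0775). It passed without replicate 3 of DMSO at 6 days at both times (0.0249 and 0.00975), and at 3 days without replicate 3 of DMSO at 3 days (0.0311), without replicate 1 of DMSO at 6 days (0.0476) and with the replicate block (0.0490).

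Vegfa and Car9 showed no fall at either time. Vegfa, the angiogenic growth factor, had 61.0, 56.9 and 47.0 CPM in DMSO and 66.7, 65.1 and 63.2 CPM under WM-1119 at 3 days, and 63.0, 58.0 and 41.6 CPM and 53.7, 57.1 and 60.0 CPM at 6 days. The treated libraries were above the DMSO libraries at 3 days and among them at 6 days, and neither time passed (adjusted p = 0.282 and 0.784). It passed at 3 days without replicate 3 of DMSO at 6 days (0.0228) and with only the groups of 3 days in the fit (0.0271). Without the 5 libraries over 1 CPM of Col1a1, only replicate 3 of each group was left at 6 days. The 6-day log2 fold change of Vegfa was then 0.53, against 0.06 with all libraries, and rested on the lowest DMSO library. Car9, the acid-exporting carbonic anhydrase, was below 1 CPM in every library, with 0.325, 0.628 and 0.624 CPM and 0.649, 0.524 and 0.787 CPM at 3 days, and 0.439, 0.310 and 0.0406 CPM and 0.958, 0.565 and 0.681 CPM at 6 days. It rose at 6 days by 1.33 ± 0.48 on the log2 scale (SE, adjusted p = 0.0382), with no overlap. That call was lost without replicate 2 (0.0631) or 3 (0.102) of DMSO or replicate 1 (0.178) or 3 (0.0732) of WM-1119 at 6 days. Without replicate 1 of DMSO at 6 days its log2 fold change was 2.07 (adjusted p = 0.0121). Without the 5 libraries over 1 CPM of Col1a1 it was 3.87, with DMSO left at the 0.0406 CPM of replicate 3.

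**Figure D3:**
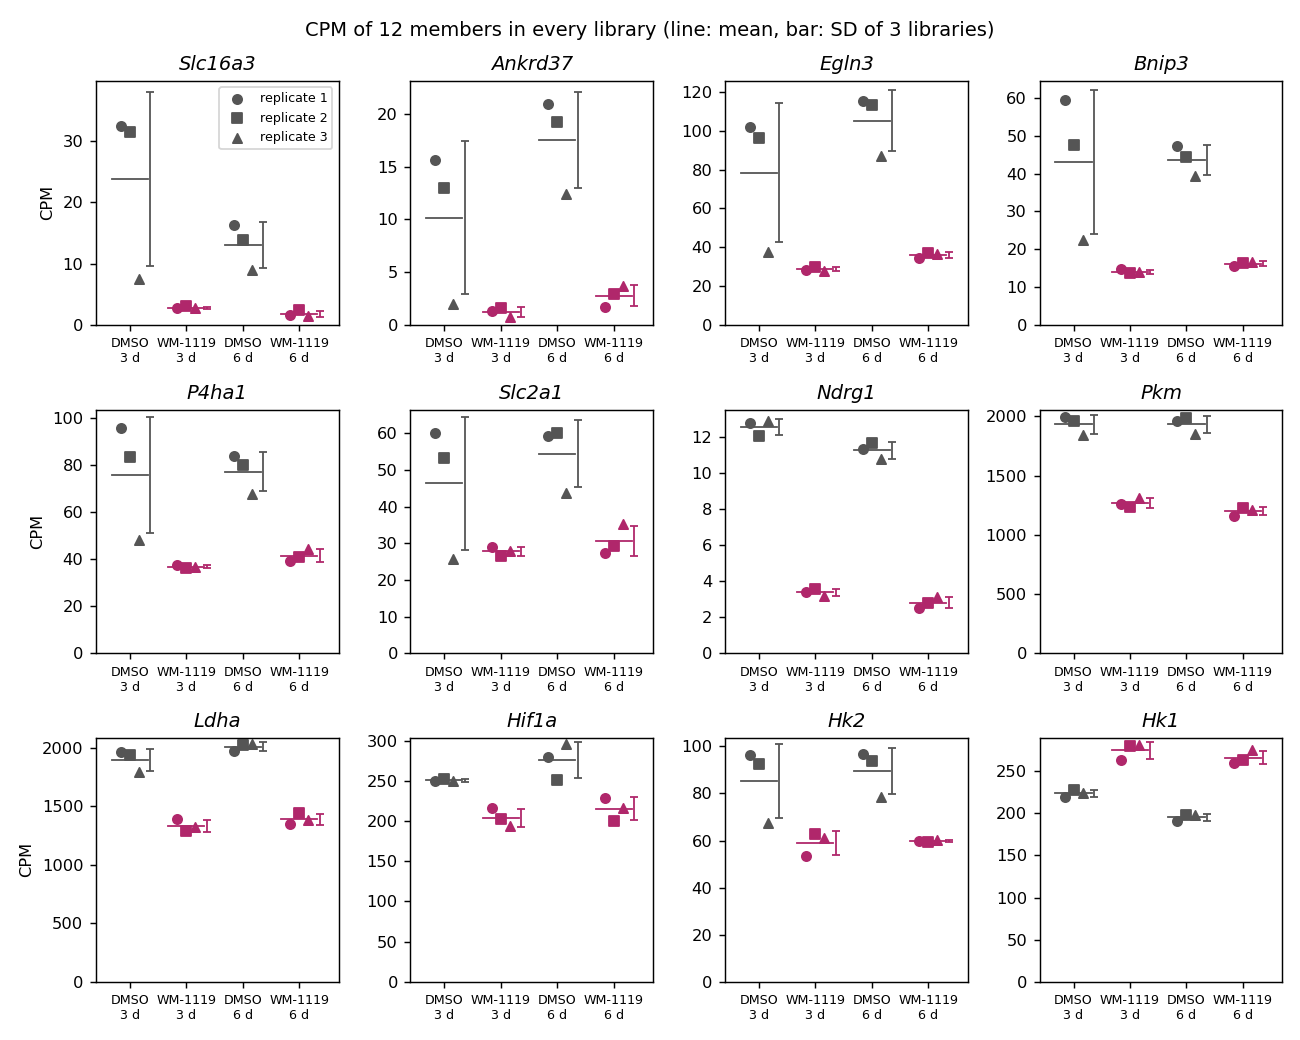
CPM of 12 of the genes in every library, by group, with replicate 1 as circles, 2 as squares and 3 as triangles, the group mean as a line and the SD of 3 libraries as a bar. The third DMSO replicate of 3 days lies near the treated libraries for Slc16a3, Ankrd37, Egln3, Bnip3, P4ha1 and Slc2a1, and lies with its group for Ndrg1, Pkm, Ldha and Hif1a.

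The sequences upstream of 4 of the genes that fell over 2-fold are shown as examples of windows in which HIF motifs can lie. They are the 250 bases before the start site, read in the direction of transcription from RefSeq sequence of build GRCm38.p6, and the capitals mark the HIF-response core, searched as ACGTG and GCGTG on both strands (on the opposite strand they read CACGT and CACGC, and the E-box CACGTG holds ACGTG on both strands). Slc16a3 is on the plus strand at chr11:120948817-120949066, and the others are on the minus strand, Ankrd37 at chr8:45999851-46000100, Bnip3 at chr7:138909507-138909756 and Egln3 at chr12:54203875-54204124.
Slc16a3: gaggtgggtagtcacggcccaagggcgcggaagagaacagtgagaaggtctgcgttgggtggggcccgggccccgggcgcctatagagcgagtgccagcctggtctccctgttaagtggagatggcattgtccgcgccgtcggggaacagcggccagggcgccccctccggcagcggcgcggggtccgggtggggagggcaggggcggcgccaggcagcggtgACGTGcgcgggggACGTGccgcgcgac
Ankrd37: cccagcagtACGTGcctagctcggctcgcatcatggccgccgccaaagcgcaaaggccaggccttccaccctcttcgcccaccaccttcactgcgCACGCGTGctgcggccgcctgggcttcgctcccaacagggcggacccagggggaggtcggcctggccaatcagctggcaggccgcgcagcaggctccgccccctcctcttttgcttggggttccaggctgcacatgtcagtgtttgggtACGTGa
Bnip3: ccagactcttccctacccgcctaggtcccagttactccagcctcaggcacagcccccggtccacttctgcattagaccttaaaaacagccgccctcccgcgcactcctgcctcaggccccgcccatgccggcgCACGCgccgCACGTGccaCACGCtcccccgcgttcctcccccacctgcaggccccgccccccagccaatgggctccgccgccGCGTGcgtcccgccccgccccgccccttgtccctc
Egln3: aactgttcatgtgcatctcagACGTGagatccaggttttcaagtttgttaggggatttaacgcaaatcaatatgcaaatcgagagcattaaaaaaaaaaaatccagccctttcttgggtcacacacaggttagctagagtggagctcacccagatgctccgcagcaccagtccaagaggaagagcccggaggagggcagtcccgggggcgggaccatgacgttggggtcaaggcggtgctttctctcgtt
The core was found 2 times in the window of Slc16a3 and once in that of Egln3. It was found 4 times in that of Ankrd37, where 2 of the matches overlap on opposite strands. In that of Bnip3 it was found 5 times, and 2 of the matches are the strands of 1 E-box. RefSeq windows of 250 bases before to 50 after the start were at hand for 35 of the 38 genes. Among the other genes that fell over 2-fold, Ndrg1 had no window. P4ha1, over 2-fold lower at 3 days only, had the core 3 times in its window. Ak4 had it 2 or 3 times in each of its windows. Of the 52 windows of the tested genes described here 80.8% held the core, against 62.5% of the 11715 windows of all tested genes and 43.8% of all 32851 windows. The E-box was in 13.5%, 10.3% and 7.15% of them. Windows of the genes that fell at both times held the core in 82.4% of 34 cases. Of those of the genes that rose, Hk1 had the core 5 times in 1 of its 2 windows and Pfkm had it in 3 of its 4. A match is a run of letters and does not show that a factor bound there. Known HIF targets were among the genes chosen, so a higher share of windows with the core may follow from that choice.

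The DMSO replicates were unevenly placed in these genes. Replicate 3 was the lowest of its DMSO group in 27 of the 36 genes (75.0%) at 3 days and again in 27 at 6 days, whereas it was the lowest in 34.5% and 36.1% of all genes tested. The DMSO libraries of 3 days spanned more than 2-fold in 6 genes (16.7%, against 4.03% of all genes): Slc2a1, Slc16a3, Egln3, Bnip3, Ankrd37 and Ak4. At 6 days 1 gene did, Car9. Taken relative to the 12-library mean of each gene, the mean log2 level of the 36 genes was 0.46, 0.43 and -0.00088 in DMSO replicates 1, 2 and 3 of 3 days, 0.43, 0.41 and 0.14 in those of 6 days, and -0.38 to -0.26 in the WM-1119 libraries. In the hypoxia group these values were 0.73, 0.62 and -0.050 in the DMSO replicates of 3 days.

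At 3 days DMSO replicates 1, 2 and 3 lay above all 3 WM-1119 libraries in 29, 29 and 27 of the 36 genes, against 34.7%, 35.4% and 35.2% of all genes tested. At 6 days they did so in 31, 31 and 28 of the 36, against 36.1%, 34.4% and 35.4%. Leaving out replicate 3 of both DMSO groups was an alternative added after the values were seen. It raises the DMSO mean of the genes in which that replicate was lowest. In that fit 27 genes fell and 1 rose at 3 days, with 24.1% of all genes called in either direction. At 6 days 29 fell and 2 rose, with 32.2% of all genes called. What set replicate 3 apart was not tested.

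**Figure D4:**
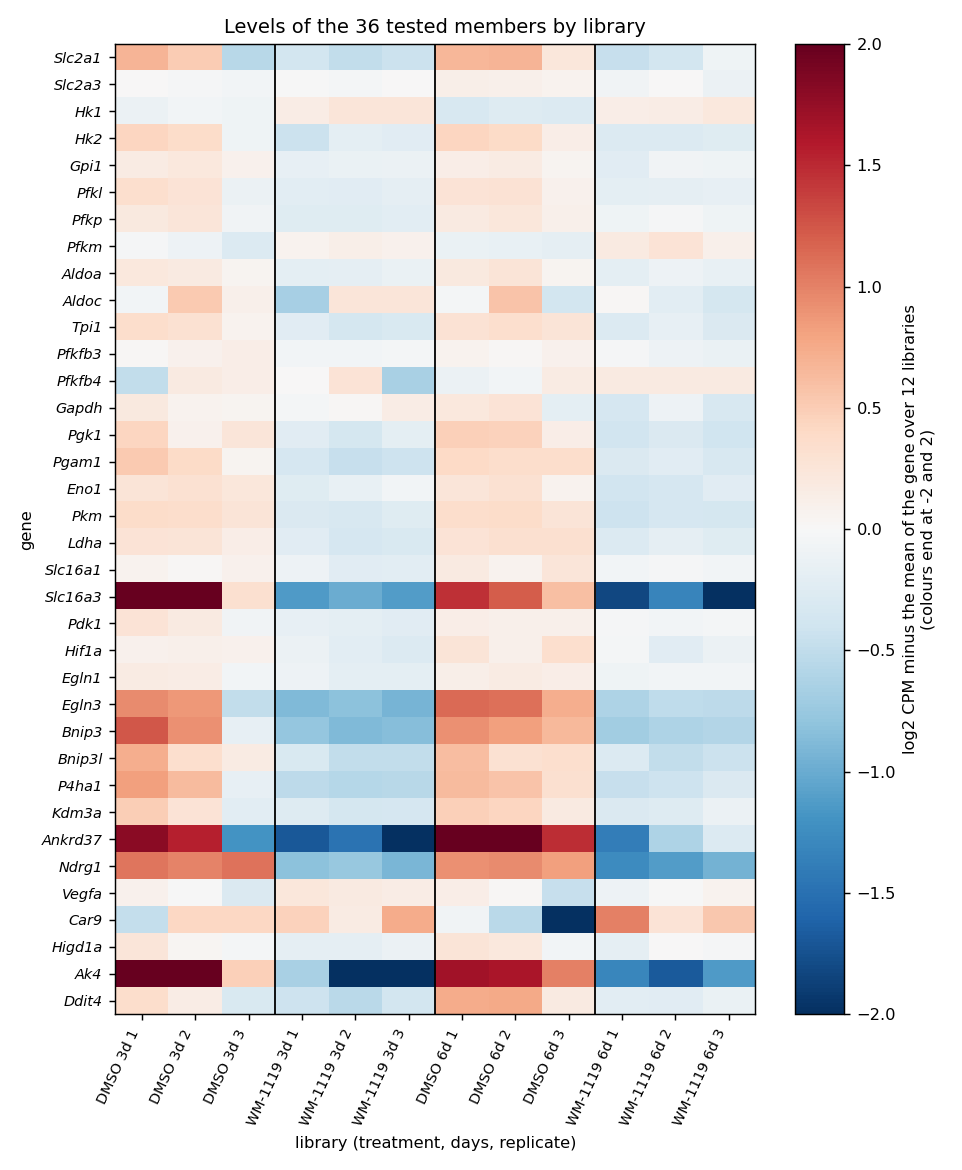
Log2 CPM of the 36 tested genes in each of the 12 libraries, relative to its mean in all of them, from low (blue) to high (red), with colours ending at -2 and 2. The third column of each DMSO block is paler or bluer than the first and second columns in most rows. The WM-1119 blocks are blue in most rows and red for Hk1, Pfkm and Car9.

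The fibroblast transcripts were uneven between libraries, and the genes were refitted without the 5 libraries over 1 CPM of Col1a1. At 3 days 14 genes then fell and 1 rose, with 18.8% of all genes called in either direction. Slc16a3, Ak4, Ankrd37, Egln3 and Bnip3 were among those no longer called there, at log2 fold changes of -3.15, -3.47, -3.32, -1.49 and -1.61 (adjusted p = 0.122 to 0.240). With all libraries 24.4% of all genes were called at 3 days and 30.8% at 6 days. At 6 days the refit left only replicate 3 of each group, so calls of single genes are not given. DMSO was there the replicate that stood apart in these genes. The log2 fold changes of the same 5 genes against it, in the same order, were -2.65, -2.20, -1.75, -1.25 and -1.24. The part of the fibroblast transcripts in the results was not tested.

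Fitting each time on its own changed several calls. With only the 2 groups of 3 days in the fit, Hk2, Pfkl, Pfkfb3, Egln3, Bnip3, P4ha1, Kdm3a and Ankrd37 were not called (adjusted p = 0.0606 to 0.142), at log2 fold changes of -1.62 for Bnip3 and -3.03 for Ankrd37, and Vegfa (0.25, adjusted p = 0.0271) and Higd1a (-0.24, 0.0373) passed. With only the groups of 6 days, Gapdh (0.109) and Car9 (0.0678) were not called, and Slc2a1 (0.0125) and Pdk1 (0.0162) passed.

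The effect of WM-1119 was not called different between the 2 times in any of these genes. None of the 36 passed for the difference between the 6-day and the 3-day effect, where 0.725% of all genes did; 2 had an unadjusted p below 0.05, and DESeq2 and limma voom also called 0. Without replicate 3 of DMSO at 3 days Pdk1 passed (log2 difference 0.27, adjusted p = 0.0410), and without replicate 3 of DMSO at 6 days Gapdh did (-0.43, 0.0274). In DMSO alone 1 of the 36 genes differed between 6 and 3 days, against 0.809% of all genes. That gene was Hk1, which was lower at 6 days (log2 fold change -0.19, adjusted p = 0.0303), and the call was lost in 6 of the 12 fits that left out 1 library (0.0509 to 0.116): those without 1 of the 3 DMSO libraries of 3 days, replicate 1 or 3 of DMSO at 6 days, or replicate 1 of WM-1119 at 6 days. Without replicate 3 of DMSO at 3 days Slc16a3 passed instead in DMSO, being lower at 6 days (log2 fold change -1.27, adjusted p = 0.00935). Without replicate 3 of both DMSO groups Slc16a3 was lower (-1.07, 3.19e-05) and Ddit4 higher (0.51, 0.000876) at 6 days. In the WM-1119 cells 0 of 36 passed between the times, against 5.62% of all genes. Of the 36, 5 had an unadjusted p below 0.05, and DESeq2 and limma voom called 0. With only the WM-1119 groups in the fit 8 of 34 passed, against 9.60% of all genes, and without replicate 3 of both DMSO groups 10 of 36 did, against 9.80%. These 3 comparisons share libraries with the comparisons of WM-1119 against DMSO.

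Other genes of these pathways were listed from textbook membership, also with earlier results of these data known. They are read against the shares of all genes tested. Of all genes tested, 12.6% were lower and 11.8% higher at 3 days, and 15.1% and 15.7% at 6 days. Of 10 tested further glycolytic genes 2 fell and 3 rose at 3 days, and 2 fell and 2 rose at 6 days; the muscle enolase Eno3 fell by 0.40 at 3 days, the phosphoglucomutase gene Pgm1 fell by 0.41 at 6 days, and the muscle mutase gene Pgam2 rose by 0.55 at 6 days on the log2 scale (adjusted p = 1.53e-05, 8.06e-05 and 0.00199). Of 7 transport genes 2 fell and 1 rose at 3 days and 2 fell and 2 rose at 6 days. Txnip, which promotes the removal of glucose transporters from the membrane, rose by 0.31 at 6 days (adjusted p = 0.000446), and Bsg, the chaperone of the lactate transporters, fell by 0.23 (adjusted p = 0.00203). In the pentose phosphate pathway, which branches from glucose 6-phosphate, 2 of 8 fell and 2 rose at 3 days, and 4 fell and 2 rose at 6 days, among them H6pd, up by 0.63 (adjusted p = 1.77e-07), and Rpia, which fell by 0.39 (adjusted p = 3.15e-06). Of 17 genes of the tricarboxylic acid cycle 4 fell and 2 rose at 3 days, and 2 fell and 3 rose at 6 days. Of 10 genes of pyruvate dehydrogenase and its control 0 fell and 1 rose, then 0 fell and 2 rose.

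Among 24 tested hypoxia-inducible genes outside the 38, 9 fell and 2 rose at 3 days, and 11 fell and 2 rose at 6 days. Bhlhe41, a circadian repressor, had 10.1, 10.1 and 6.99 CPM in DMSO and 1.86, 1.98 and 1.77 CPM under WM-1119 at 6 days, a fall of 4.84-fold without overlap (adjusted p = 2.46e-08). Angptl4, which inhibits lipoprotein lipase, went the other way: 5.25, 6.42 and 5.51 CPM in DMSO and 15.0, 15.4 and 15.8 CPM under WM-1119 at 3 days, a 2.68-fold rise without overlap (adjusted p = 5.51e-09). Gbe1, the glycogen branching enzyme, fell by 0.49 at 6 days (adjusted p = 2.93e-06). Of 14 tested partners and regulators of HIF 0 fell and 0 rose at 3 days, with 1 at an unadjusted p below 0.05. At 6 days Eloc, a subunit of the ligase that destroys HIF-1 alpha, fell by 0.16 (adjusted p = 0.0310) and Epas1, the HIF-2 alpha gene, rose by 1.11 (adjusted p = 0.0360) from a low level of 1.00, 0.576 and 0.203 CPM to 1.86, 1.30 and 1.02 CPM.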

How the data were processed

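The deposited values are read counts per gene in 12 libraries, which the authors made with featureCounts on build mm10, per the submitters' processing notes; the libraries are stranded and poly(A)-selected, per the labels' protocols. The aligner, the strand setting and the treatment of reads with several matches were not stated in the sources used here. Of 27179 entries, 874 without an identifier (0.305% to 0.362% of counts) were left out. Symbols came from RefSeq.

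Genes were filtered by group with filterByExpr, scaled by TMM and fitted together over 4 group means with edgeR 4.0.16 (robust quasi-likelihood, R 4.3.3). P-values are two-sided. CPM is the usual count rate of a TMM-scaled library. Intervals of levels are SDs of 3 libraries.

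The genes, lists and alternatives were chosen with earlier results of these data known. All 38 genes could be named. Values in every library are given for those called at both times, called between the times or in DMSO, or spanning over 2-fold between DMSO replicates, and for some others. At most 4 genes were named per further list, by smallest p. Alternatives were RLE and upper-quartile scaling, TMM factors without these genes, no filter, 1 CPM in 3 libraries, DESeq2 1.42.0, limma voom 3.58.1, groups fitted alone, a replicate block, and libraries left out.

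Same-numbered DMSO and WM-1119 libraries deviated together at 6 days (correlation over all genes tested 0.147 to 0.275 in the 3 pairs, -0.252 to 0.0936 between other numbers). At 3 days they did not (-0.024 to 0.031), so the numbers were taken to pair the libraries of 6 days. Over the tested genes described here alone, the 6-day correlations were 0.255, -0.301 and 0.00723 for numbers 1, 2 and 3. The main fit did not use the pairing.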

Additional observations from a re-analysis of the deposited data

How the results depend on the processing

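No call of a gene changed direction under any alternative. The count of genes called at 3 days, 27, was 22 to 30 when 1 library was left out, and that at 6 days, 29, was 24 to 31. For the difference between the times, for DMSO and for WM-1119 between the times, the counts were 0, 1 and 0. With 1 library left out they were 0 to 1, 0 to 1 and 0 to 3. Of all genes, 0.377% to 1.80%, 0.339% to 1.31% and 2.56% to 9.10% were then called. Without the 5 libraries over 1 CPM of Col1a1 the counts were 15 at 3 days and 11 at 6 days, where fewer libraries were fitted. Fewer of all genes were also called in that fit at both times. At 6 days it compared 1 library with 1, so the 6-day count cannot show a loss in these genes, and nothing is concluded from it. In WM-1119 cells between the times 1 gene passed with no filter on low counts (4.42% of all genes). With the groups fitted alone 8 passed (9.60%), and without replicate 3 of both DMSO groups 10 did (9.80%). In DMSO 0 passed with the groups fitted alone (0.399% of all genes). Without replicate 3 of both DMSO groups 2 genes passed in DMSO and 2 for the difference, against 0.545% and 1.85% of all genes. Other scalings, filters and tools and the groups fitted alone gave 21 to 28 genes at 3 days and 27 to 30 at 6 days. The cause of these changes was not tested.

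With the replicate number as a block, 28 genes passed at 3 days and 30 at 6 days, where 26.3% and 32.5% of all genes did. With the block within 6 days, added after the values were seen, 29 passed, against 37.1% of all genes. Pairing changed the calls of Higd1a, Pdk1 and Ddit4 given above and no other. Low counts limit Ak4, Car9 and Aldoc, and reads shared with processed copies limit Gapdh and Bnip3l. The design holds 1 cell line.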
